A study of Homo sapiens with 12 samples.

Results

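The genes described here are those of the human histone clusters, that is, every gene name in the deposited transcript annotation that reads HIST followed by a cluster number from 1 to 4 and a histone name. Only transcript models that matched a reference transcript (class code =) or shared a splice junction with it (class code j) were used, and their values were summed per gene name. This gave 89 of 56537 gene names, of which 8 were H1, 22 H2A, 26 H2B, 17 H3 and 16 H4 genes. They carried 152 models with class code = and 12 with class code j. HCT116, an established human colorectal cancer cell line, was grown in 21% oxygen (0 h) or kept in 1% oxygen for 1 h, 2 h or 24 h, with 3 libraries of polyadenylated RNA at each of the 4 time points and 12 in all. The 0 h cells were the common control of all comparisons, so the differences at 1, 2 and 24 h share these 3 libraries. Cells went into 1% oxygen 24 h after plating, and when the 0 h cells were collected is not stated, so the effect of low oxygen at 24 h cannot be told apart from that of longer culture.

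Histone proteins package DNA into nucleosomes, in which a core of H2A, H2B, H3 and H4 is wrapped by DNA and the linker histone H1 binds where the DNA enters and leaves. The clustered genes are called replication-dependent because their mRNAs are made mainly during S phase, when new DNA must be packaged. Their mRNAs are unusual among those of animal cells in that they end in a conserved RNA hairpin, the stem-loop, and not in a poly(A) tail. The stem-loop is bound by SLBP, and cleavage just after it is guided by the U7 small nuclear ribonucleoprotein. Some clustered genes also give longer, polyadenylated mRNAs that run past or splice around the stem-loop, and these are known from cells that have stopped dividing. A library of polyadenylated RNA holds the polyadenylated fraction of these transcripts and whatever other histone mRNA came through the selection, and the 2 sources were not separated here.

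To show the element that sets these genes apart, the stem-loop was read from the GRCh37 (hg19) genome downstream of the stop codon of each gene's canonical transcript in GENCODE release 44 lifted to that build. The lines give the 16 bases of the stem-loop in capitals with 5 bases on each side, on the coding strand, for the 9 genes that passed the test at 24 h and for HIST1H2BK and HIST3H2A, both among the most abundant.

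HIST1H1C, chr6:26055972-26055987, minus strand: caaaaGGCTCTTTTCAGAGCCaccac
HIST1H2AC, chr6:26124897-26124912, plus strand: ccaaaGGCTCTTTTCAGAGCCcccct
HIST1H2AI, chr6:27776425-27776440, plus strand: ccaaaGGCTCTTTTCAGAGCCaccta
HIST1H2AJ, chr6:27782086-27782101, minus strand: acaaaGGCTCTTTTCAGAGCCacttc
HIST1H2BD, chr6:26158815-26158830, plus strand: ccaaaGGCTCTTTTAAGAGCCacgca
HIST1H2BK, chr6:27114145-27114160, minus strand: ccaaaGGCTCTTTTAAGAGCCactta
HIST1H2BO, chr6:27861648-27861663, plus strand: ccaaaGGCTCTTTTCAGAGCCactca
HIST1H3J, chr6:27858098-27858113, minus strand: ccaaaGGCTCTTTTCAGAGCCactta
HIST1H4J, chr6:27792237-27792252, plus strand: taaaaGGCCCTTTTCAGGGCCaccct
HIST2H2AC, chr1:149858941-149858956, plus strand: ccaaaGGCTCTTTTTAGAGCCaccca
HIST3H2A, chr1:228645070-228645085, minus strand: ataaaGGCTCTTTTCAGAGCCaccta

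All of these lie in 3' untranslated regions. The stem-loop consensus, 16 bases in which the outer GG and CC, the T and A that close the stem at the loop and 2 T bases of the loop are fixed and the rest free, was searched within 300 bases after the stop codon on the coding strand. It was found in 66 of 66 members with a matched coding transcript and in 80 of 19718 other coding genes (0.406%), and it began 22 to 67 bases after the stop codon (median 35). In all, 80 of the 89 gene names were matched to a canonical transcript, of which 14 have no coding sequence there, such as HIST2H2BD and HIST3H2BA, and were not searched. No stem-loop was mapped on a canonical transcript for these or for the gene names without a match. The form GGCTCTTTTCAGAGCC was shared by 39 members of the H1, H2A, H2B and H3 classes. The forms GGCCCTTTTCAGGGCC and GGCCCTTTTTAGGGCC were found in H4 genes alone, in 8 and 4 of them. Genes called higher at 24 h (HIST1H1C, HIST1H2AC) and lower (HIST1H2AI, HIST1H2AJ, HIST1H2BO, HIST1H3J) thus carried the same 16 bases.

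Levels of the histone cluster genes were low in this polyadenylated RNA. FPKM, the number of fragments scaled by transcript length and by the mapped fragments of the library, is a level per length. Members may differ in how much of their mRNA came through the selection. Low values and comparisons between members thus describe the RNA recovered and not all the histone mRNA of the cells. In every library 28 of the 89 members were listed at 0. These were HIST1H1A, HIST1H1B and HIST1H1D of the H1 class, HIST1H2AA and HIST1H2AL, HIST1H2BA, HIST1H2BB, HIST1H2BI, HIST2H2BB and HIST3H2BA (annotated without a coding sequence), HIST1H3F, HIST1H3G, HIST1H3I and HIST3H3, HIST1H4F, HIST1H4G and HIST1H4L, and the remaining ones were pseudogenes (names with PS). An exact 0 in such a file can be a failed estimate, so it is given only as listed. A further 26 members had values above 0 but did not pass the filter of an FPKM above 0.5 in at least 3 libraries, and their highest values ranged from 0.0556 to 1.03 FPKM with a median of 0.316. Among them was HIST1H1T, the testis H1, at a mean of 0.00824 FPKM over the 12 libraries.

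The filter left 35 members for testing, 2 of H1, 10 of H2A, 10 of H2B, 6 of H3 and 7 of H4. Their mean FPKM over 12 libraries ran from 0.33 to 10.9 with a median of 1.28, and only 4 members exceeded 10 FPKM in any library. All 35 passed on the libraries of 0, 1 and 2 h alone, and 8 of them were above 0.5 FPKM in none of the 24 h libraries. A member such as these, which passed through the earlier times where it was higher, was bound to be lower at 24 h, so the counts below describe the genes that passed and not all members. HIST1H2BK, an H2B gene, had the highest level. It was at 8.58, 10.1 and 12.4 FPKM at 0 h, 10.9, 11.3 and 13.1 at 1 h, 8.75, 12 and 13 at 2 h, and 10.7, 8.76 and 10.9 at 24 h. The 4 time points overlapped throughout, and the log2 fold change at 24 h was -0.02 (SE 0.17, adjusted p = 0.92). By mean over the 12 libraries it was followed by HIST1H1C (7.43), HIST1H2BD (6.63) and HIST3H2A (6.4).

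**Figure D1:**
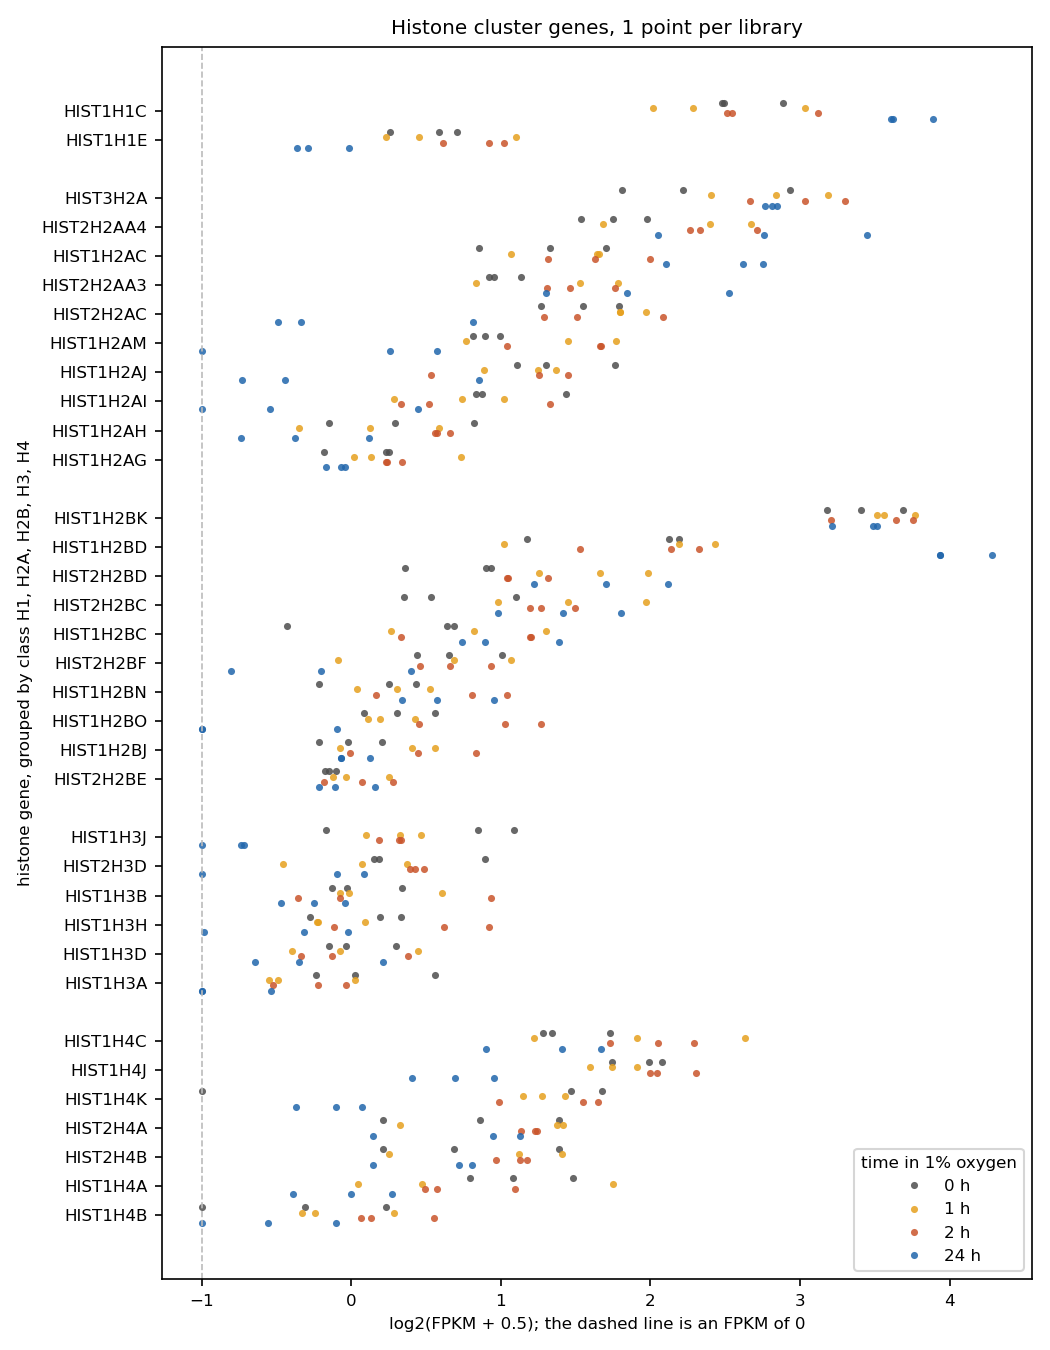
Level of each of the 35 tested histone genes in each library, as log2(FPKM + 0.5) on the horizontal axis, with genes grouped by class and ordered by mean level, and colours for the time in 1% oxygen. HIST1H2BD, HIST1H1C and HIST1H2AC have their 24 h points to the right of all 0 h points, while HIST1H4J, HIST2H2AC and HIST1H3J have theirs to the left.

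For the libraries as a whole, Pearson's r between replicates across genes on the log2 scale was 0.965 to 0.988. Depth is not given in the deposited table, so the spread between the 3 libraries is the measure of precision. The epithelial markers EPCAM, KRT8, KRT18 and KRT19 were at 213 FPKM or more in every library and CDH1 at 6.06 or more, while VIL1 did not exceed 0.048. Of the markers of other cell types, PTPRC, CD3E, COL1A2, PECAM1 and CDH5 did not exceed 0.0763 FPKM, and COL1A1 ranged from 1.58 to 8.79. All 8 hypoxia genes used as a check (such as CA9, NDRG1 and BNIP3) were called higher at 24 h, against 8.76% of all genes. They were chosen with earlier results of these data known, so this count is no independent check. Of the 8, VEGFA was not called (log2 fold change 1.02, adjusted p = 0.045) when each library was rescaled to a common sum (TPM).

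The first question was whether histone RNA differed early in hypoxia. Differences in log2(FPKM + 0.5) were tested with limma over all 12 libraries and 16680 gene names. A gene was called where its log2 fold change exceeded 1 in either direction and its adjusted p was under 0.01. The added 0.5 makes the fold changes of low genes too small. At 1 h 0 of the 35 members were called by limma, against 0.006% of all genes tested, and HIST2H2BD and HIST2H2BC had an unadjusted p under 0.05 (adjusted p = 1 for both). The median log2 fold change of the 35 was 0.16, against -0.0071 for all genes. At 2 h 0 members were called again, against 0.018% of all genes, HIST3H2A and HIST2H2BC had an unadjusted p under 0.05 (adjusted p = 0.27 and 0.3), and the median was 0.33 against -0.018. Of the 35 members, none reached an adjusted p under 0.05 at either time. Libraries of 0 h and 2 h with the same replicate number deviated together, and with the number as a block over the 9 libraries of 0, 1 and 2 h, a fit added after the data were seen, 0 members were again called by limma at 2 h (of all genes 0.21%, 0.156% higher and 0.054% lower). In that fit HIST3H2A (log2 fold change 0.68, SE 0.11, adjusted p = 0.014) and HIST1H2BC (0.61, SE 0.16, adjusted p = 0.041) were higher at 2 h at an adjusted p under 0.05, where 6.28% of all genes were higher and 7.06% lower. With the block over all 12 libraries neither gene passed (adjusted p = 0.075 and 0.12). In the fit over the 9 libraries, 10 members at 2 h and 6 at 1 h had an unadjusted p under 0.05, all on the higher side. The share of all genes under that unadjusted p is not known for this fit. At 1 h no member reached an adjusted p under 0.05 with the block. HIST3H2A was higher at 1 h and at 2 h than at 0 h in all 3 same-numbered pairs.

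At 24 h of 1% oxygen single histone cluster genes were called in both directions, while most were not called. On the higher side the count was near the share of all genes. HIST1H2BD, HIST1H2AC and HIST1H1C were called higher, and HIST2H2AC, HIST1H2AJ, HIST1H2AI, HIST1H3J, HIST1H4J and HIST1H2BO were called lower. That is 9 of 35 (25.7%), where 18.3% of all genes were called. The split was 3 higher, against 8.76% of all genes, and 6 lower, against 9.51%. At an adjusted p under 0.05 with no minimum fold, 7 members were higher and 11 lower, where 55.3% of all genes passed, 25% higher and 30.3% lower. The 24 h libraries lay wholly above the 0 h libraries for 7 of the 35 (20%; 27.6% of all genes) and wholly below them for 12 (34.3%; 32.8% of all genes). The median log2 fold change was -0.20, against -0.051 for all genes. In RNA from whole cultures, fewer cells with a transcript and less of it per cell cannot be told apart. By flow cytometry the authors saw no significant effect of 24 h of hypoxia on proliferation. That measurement was not compared with the values here.

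The calls rested in part on single libraries. Without 0 h replicate 1, 1 member was called higher and 4 lower, and without 24 h replicate 1, 5 were called higher and 3 lower. Rescaling each library to a common sum (TPM) moved the median log2 fold change of all genes to -0.675 and gave 1 member called higher and 6 lower, with 6 of the 9 calls shared, where 1.29% of all genes were called higher and 23.3% lower. Under TPM the calls of HIST1H1C (0.25, adjusted p = 0.6), HIST1H2AC (0.38, adjusted p = 0.32) and HIST1H2BO (-0.81) were lost, and HIST1H4A (-1.10, adjusted p = 0.00014) was called lower. None of the 9 called members changed sign under TPM or either of the other scalings tried.

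By class, H3 and H4 stood lower and H1 and H2B higher in summed FPKM at 24 h. The summed FPKM of the 17 H3 genes was 6.15, 4.07 and 4.78 at 0 h and 1.71, 1.16 and 2.8 at 24 h, with no overlap. For the 16 H4 genes it was 8.57, 15.1 and 15.9 at 0 h and 4.52, 8.25 and 8.91 at 24 h, where 1 library of 0 h lay within the range of 24 h. For H1 it was 6.15, 5.83 and 8.02 at 0 h and 12.3, 14.5 and 12 at 24 h, which is nearly all HIST1H1C. For H2B the means were 21.5 ± 3.26 at 0 h and 35.8 ± 3.88 at 24 h (SD, n = 3), and without HIST1H2BD the means were 18.3 ± 2.06 and 19.6 ± 3.27. H2A was at 20.5 ± 2.1 at 0 h and 24.9 ± 7.04 at 24 h. The sum over all members was 66.9 ± 9.24 FPKM at 0 h and 82.8 ± 6.66 at 24 h, with 76.6 ± 20.3 and 83 ± 9.71 at the times between. Without the 4 most abundant members, HIST1H2BK, HIST1H1C, HIST1H2BD and HIST3H2A, the sums were 42.8 ± 3.42 at 0 h and 37.3 ± 8.87 at 24 h. These sums are descriptions and were not tested.

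**Figure D2:**
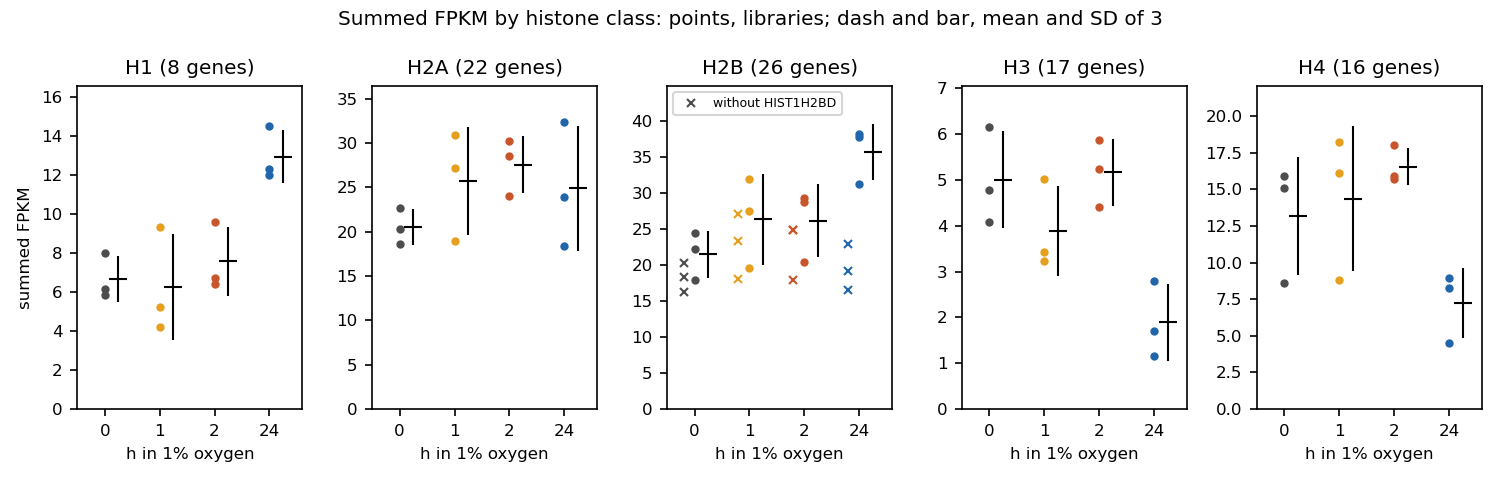
Summed FPKM of each histone class (vertical axis) by time in 1% oxygen (horizontal axis), with 1 point per library and the mean and SD of 3 libraries beside them, and for H2B also the sum without HIST1H2BD as crosses. H3 sums lie at 4.07 to 6.15 at 0 h and 1.16 to 2.8 at 24 h, and the H2B crosses overlap between 0 h (16.2 to 20.3) and 24 h (16.5 to 23.0).

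Of the linker histones of the clusters, HIST1H1C and HIST1H1E (H1.2 and H1.4) were the ones tested, and their values differed from 0 h in opposite directions. HIST1H1C was at 5.08, 5.13 and 6.89 FPKM at 0 h, 3.55, 4.38 and 7.69 at 1 h, 5.33, 5.2 and 8.2 at 2 h, and 11.8, 14.3 and 11.7 at 24 h. Every 24 h library lay above every earlier one, and the log2 fold change was 1.08 (SE 0.25, adjusted p = 0.0026), which became 0.25 under TPM and was then not called. The call was also lost without 0 h replicate 1, 0 h replicate 2 or 24 h replicate 2 (0.99 to 1.02). HIST1H1E was at 0.999, 0.697 and 1.13 FPKM at 0 h and 0.492, 0.277 and 0.32 at 24 h. Its 24 h libraries lay below all the others (0.674 to 1.65 FPKM at 1 and 2 h), but with a log2 fold change of -0.74 (SE 0.24, adjusted p = 0.019) it was not called. HIST1H1A, like HIST1H1B and HIST1H1D, was listed at 0 throughout.

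Among the H2A genes, 1 was called higher and 3 lower of 10 tested, where 8.76% and 9.51% of all genes were. HIST1H2AC was at 1.31, 2.01 and 2.75 FPKM at 0 h, 1.6, 2.62 and 2.65 at 1 h, 1.99, 2.6 and 3.49 at 2 h, and 3.8, 6.25 and 5.65 at 24 h. Its 24 h libraries exceeded all others, with a log2 fold change of 1.20 (SE 0.27, adjusted p = 0.0022). It was not called under TPM (0.38), with class code = alone (0.93), or without 0 h replicate 1 (0.98) or 24 h replicate 2 (1.07). HIST2H2AC, on chromosome 1, went the other way, from 1.91, 2.96 and 2.42 FPKM at 0 h through 3.42, 2.97 and 2.98 at 1 h and 3.74, 2.35 and 1.94 at 2 h to 1.26, 0.214 and 0.293 at 24 h. The 24 h libraries were the lowest of the 12, and the log2 fold change was -1.54 (SE 0.31, adjusted p = 0.0012). HIST1H2AJ was at 2.9, 1.66 and 1.97 FPKM at 0 h and 0.103, 1.31 and 0.236 at 24 h (log2 fold change -1.5, SE 0.37, adjusted p = 0.0047). HIST1H2AI was at 2.21, 1.33 and 1.28 FPKM at 0 h and 0.187, 0.862 and 2.89e-06 at 24 h (log2 fold change -1.41, SE 0.37, adjusted p = 0.0062). The call of HIST1H2AI was lost under 8 of 27 alternatives and that of HIST1H2AJ under 6, in both without 0 h replicate 1 or 3 or 24 h replicate 1 or 3, and for HIST1H2AI also without 0 h replicate 2. Without single libraries the log2 fold change was -1.82 to -1.10 for HIST1H2AI and -1.98 to -1.19 for HIST1H2AJ. In both, 24 h replicate 2 was the highest of the 3 and still below all 0 h libraries. HIST1H2AI and HIST1H2AJ shared 58.8% and 61.8% of their runs of 100 bases with each other, so reads may have been divided between them and neither value is independent of the other.

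HIST2H2AA3 and HIST2H2AA4 are duplicate copies of the same H2A gene, and the value of the second was 1.72 to 2.18 times that of the first in every library. HIST2H2AA4 was at 2.87, 3.43 and 2.4 FPKM at 0 h and 3.64, 10.4 and 6.28 at 24 h. All 3 libraries at 24 h lay above those at 0 h, but they spread widely, and the log2 fold change of 1.0 (SE 0.32, adjusted p = 0.02) was not called. HIST2H2AA3 had 0.89 (SE 0.3, adjusted p = 0.024). Without 24 h replicate 1 both were called higher, at 1.35 and 1.18. HIST3H2A, from the small HIST3 cluster, was at 3.01, 4.16 and 7.13 FPKM at 0 h, 4.79, 6.67 and 8.62 at 1 h, 5.85, 7.68 and 9.37 at 2 h, and 6.51, 6.3 and 6.68 at 24 h. The 24 h libraries fell within the range of 0 h (log2 fold change 0.49, SE 0.27, adjusted p = 0.15), and under TPM the sign turned (-0.27). The remaining H2A genes tested, HIST1H2AM, HIST1H2AH and HIST1H2AG, had log2 fold changes of -0.96, -0.65 and -0.19 and were not called.

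HIST1H2BD, an H2B gene, showed the largest change of the 35 members. It was at 1.76, 3.86 and 4.07 FPKM at 0 h, 1.53, 4.07 and 4.9 at 1 h, 2.39, 3.9 and 4.5 at 2 h, and 19.0, 14.8 and 14.8 at 24 h. The lowest 24 h library was about 3 times the highest of the others, and the log2 fold change was 2.22 (SE 0.36, adjusted p = 0.00025), and 1.29 (adjusted p = 0.0029) under TPM. HIST1H2BO was the H2B gene called lower. It was at 0.734, 0.976 and 0.561 FPKM at 0 h and 0.0, 0.000544 and 0.435 at 24 h, so that all 24 h libraries lay below 0.5 FPKM, and the log2 fold change was -1.02 (SE 0.28, adjusted p = 0.0087). This call was lost under 17 of 26 alternatives. HIST2H2BD, an H2B pseudogene without a coding sequence in the annotation, and HIST2H2BC, for which no canonical transcript was matched, were at 1.19 ± 0.349 and 1.12 ± 0.46 FPKM at 0 h, 2.67 ± 0.785 and 2.37 ± 0.974 at 1 h, 1.71 ± 0.246 and 2.01 ± 0.276 at 2 h, and 2.81 ± 1.0 and 2.21 ± 0.759 at 24 h (SD, n = 3). Their means at 1 h thus lay near those at 24 h, with log2 fold changes at 1 h of 0.90 (SE 0.26) and 0.80 (SE 0.28) and an adjusted p = 1 for both. At 24 h their log2 fold changes, 0.95 (SE 0.26, adjusted p = 0.0073) and 0.74 (SE 0.28, adjusted p = 0.042), were below the fold required. The other H2B genes tested, among them HIST1H2BK described above, were not called either. HIST2H2BF was below its 0 h range in all 24 h libraries (-0.90, SE 0.34, adjusted p = 0.038). HIST1H2BC and HIST1H2BN had log2 fold changes of 0.71 and 0.46, and HIST2H2BE and HIST1H2BJ had 0.09 and 0.01, which turned negative under TPM.

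H3 genes had low values, and all 6 tested had log2 fold changes below 0 at 24 h, from -1.41 to -0.30, where 52.8% of all genes were below 0. HIST1H3A, HIST1H3B, HIST1H3H and HIST1H3J were above 0.5 FPKM in none of the 24 h libraries. They passed the filter through the earlier times alone, so the shared direction was largely set by the filter. Of the 6, 1 was called lower, against 9.51% of all genes. HIST1H3J was at 1.3, 0.389 and 1.63 FPKM at 0 h, 0.755, 0.884 and 0.572 at 1 h, 0.748, 0.639 and 0.761 at 2 h, and 0.109, 0.0 and 0.0991 at 24 h. The 24 h libraries were the lowest of all (log2 fold change -1.41, SE 0.28, adjusted p = 0.0011), and the call was lost under 1 alternative, a pseudocount of 1 (-0.93). HIST1H3A (-0.96, adjusted p = 0.008) missed the fold required by a small margin. HIST2H3D was at 1.36, 0.638 and 0.609 FPKM at 0 h and 0.559, 0.0 and 0.437 at 24 h, without overlap, but was not called (-0.75, adjusted p = 0.059). HIST1H3B and HIST1H3H overlapped between 0 h and 24 h, at -0.31 (adjusted p = 0.42) and -0.52 (adjusted p = 0.17), as did HIST1H3D at -0.30 (adjusted p = 0.4).

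The 7 H4 genes tested also had log2 fold changes below 0 at 24 h, from -1.25 to -0.08, again with 1 called lower, and the shares of all genes are the same 52.8% and 9.51%. The 7 are not independent values, because HIST1H4J and HIST1H4K share most of their sequence and HIST2H4A and HIST2H4B all of it. The signs of HIST2H4A and HIST1H4C changed under some alternatives. The change of HIST1H4J had the smallest adjusted p of all members. It was at 2.85, 3.47 and 3.71 FPKM at 0 h, 2.52, 3.25 and 2.85 at 1 h, 3.62, 3.5 and 4.44 at 2 h, and 0.825, 1.12 and 1.44 at 24 h. The 24 h libraries lay below all others with a clear gap, and the log2 fold change was -1.25 (SE 0.17, adjusted p = 7.9e-05). HIST1H4K, whose coding sequence is identical to that of HIST1H4J and which shared 91.3% of its runs of 100 bases with it, was at 6.22e-05, 2.27 and 2.7 FPKM at 0 h and 0.275, 0.551 and 0.434 at 24 h. Its near-zero value in 0 h replicate 1 stood apart from the other 2, and with it the gene was not called (-0.85, SE 0.53, adjusted p = 0.2). Without that library the log2 fold change of HIST1H4K was -1.71 and it was called lower. The division of reads between the pair is uncertain. HIST1H4C was at 1.93, 2.04 and 2.82 FPKM at 0 h, 1.83, 3.25 and 5.71 at 1 h, 2.81, 4.39 and 3.64 at 2 h, and 1.37, 2.68 and 2.15 at 24 h, with overlapping ranges (-0.13, SE 0.32, adjusted p = 0.76). HIST2H4A, whose runs of 100 bases were all shared with HIST2H4B, overlapped as well (-0.08, SE 0.36, adjusted p = 0.87), and HIST2H4B had -0.20 (adjusted p = 0.63). HIST1H4A was at 1.62, 1.23 and 2.29 FPKM at 0 h and 0.5, 0.707 and 0.265 at 24 h. Its groups did not overlap, but the 1 h libraries ran from 0.531 to 2.87, and it was not called (-1.16, SE 0.38, adjusted p = 0.02). Under TPM it was called lower (-1.10, adjusted p = 0.00014). HIST1H4B (-0.19) was at 0 in 1 library of 0 h and 1 of 24 h.

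By location, the large cluster on chromosome 6 (HIST1) held 24 tested members, 3 called higher and 5 lower, with a median log2 fold change of -0.42. The HIST2 cluster on chromosome 1 held 10, with 0 called higher by limma (4 had an adjusted p under 0.05 on the higher side), 1 called lower and a median of 0.01. Of all genes 8.76% were called higher and 9.51% lower.

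**Figure D3:**
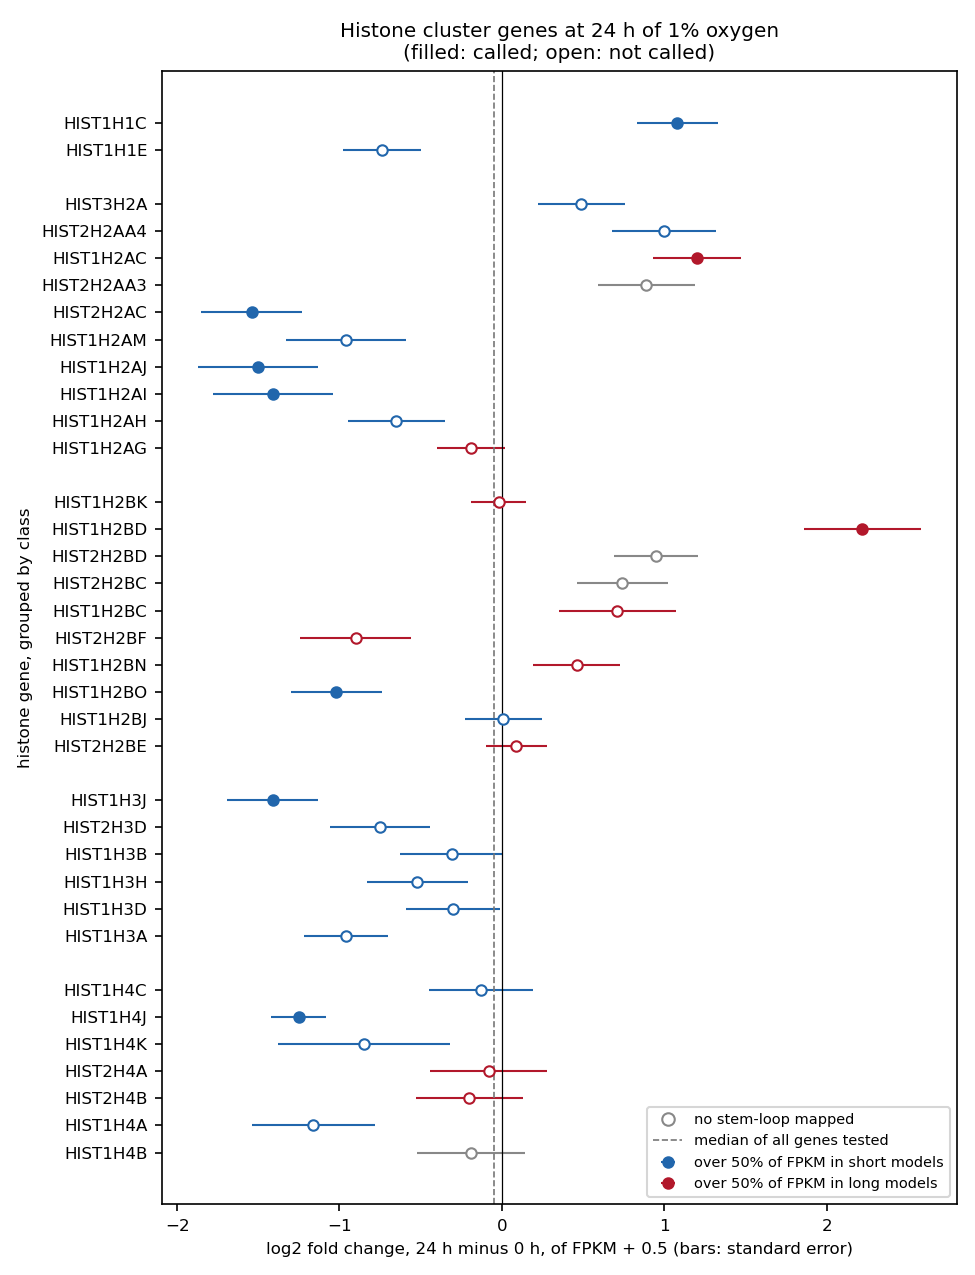
Log2 fold change of FPKM + 0.5 at 24 h against 0 h (horizontal axis, with standard errors) for the 35 tested histone genes, grouped by class, with filled points for called genes and colours for the kind of transcript model that carried most of the FPKM. The 6 genes called lower all have short models, as does HIST1H1C, called higher, while HIST1H2BD and HIST1H2AC, called higher, have mostly long ones over the 12 libraries (HIST1H2BD 48.0% long at 0 h).

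Because a histone mRNA that is processed in the usual way stops just after the stem-loop, the models were divided by length. A model more than 100 bases longer than the canonical transcript up to the end of its stem-loop was termed long, and any other model short. Of the 35 members, 10 had over 50% of their FPKM in long models over the 12 libraries and 21 had it in short ones. The other 4 had no stem-loop mapped on a canonical transcript and were not divided. Of the 10, 2 were called higher and 0 lower by limma (1 had an adjusted p under 0.05 on the lower side), with a median log2 fold change of 0.03. Of the 21, 1 was called higher and 6 lower, with a median of -0.75. Over all genes the shares called were 8.76% higher and 9.51% lower, so that about 1 call on each side among 10 genes is the background. HIST1H1C was the exception among the genes called higher, with all its FPKM on a 732-base model, 5 bases longer than the canonical transcript up to the end of its stem-loop. When the division used the 0 h libraries alone, HIST1H2BD counted as short, and the medians were -0.02 for 9 genes and -0.74 for 22. The division was made with the results known and was not tested.

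Long models made up 23.4%, 34.5% and 30.9% of the summed FPKM of all members in the 0 h libraries and 38.8%, 38.4% and 41.4% at 24 h. The 24 h libraries were the highest of the 12. Without HIST1H2BD the shares were 28.8% ± 5.01 at 0 h and 32.1% ± 1.69 at 24 h (SD, n = 3) and overlapped. With 200 bases as the limit, the shares were 27.1% ± 6.39 and 38.1% ± 0.867. Short models summed to 42.4 ± 4.71 FPKM at 0 h and 41.2 ± 3.61 at 24 h.

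At the level of single models, 44 histone models were tested, and 2 were called higher at 24 h (5% of all transcripts tested) and 2 lower (6.49% of all). Both models called higher belong to reference transcripts of 2 exons whose exons leave out the stem-loop. The 789-base model of HIST1H2BD was at 0.435, 2.08 and 1.31 FPKM at 0 h, 0.343, 1.54 and 2.24 at 1 h, 1.22, 2.23 and 2.68 at 2 h, and 10.3, 10.1 and 10.3 at 24 h. The 3 libraries at 24 h were nearly equal and far above the rest (log2 fold change 2.72, SE 0.45, adjusted p = 0.0013). The 523-base model of HIST1H2BD, which ends at the stem-loop, went from 1.25, 1.47 and 2.32 FPKM to 7.62, 3.46 and 3.39, without overlap, and was not called (1.23, SE 0.35, adjusted p = 0.024). Long models thus held 70.2% of the FPKM of HIST1H2BD at 24 h.

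The 1462-base model of HIST1H2AC was at 0.0, 0.167 and 0.0 FPKM at 0 h, 0.566, 1.12 and 0.503 at 1 h, 0.0881, 0.0 and 0.371 at 2 h, and 0.506, 2.08 and 1.59 at 24 h (log2 fold change 1.67, SE 0.38, adjusted p = 0.0073). Its values at 24 h lay above those at 0 h but overlapped those at 1 h. The most abundant model of HIST1H2AC, of 1668 bases and running past the stem-loop, did not separate the times (0.36, SE 0.45, adjusted p = 0.61). HIST1H2BK was carried by an 820-base model at 8.66 ± 2.73 FPKM at 0 h and 9.1 ± 1.06 at 24 h (0.11, SE 0.28, adjusted p = 0.81). Its 381-base model was at 2.14, 2.85 and 1.6 FPKM in replicate 1 of 0, 1 and 2 h, and at 0 or near 0 in the other 9 libraries. The models called lower were the 437-base model of HIST2H2AC (-1.54, SE 0.34, adjusted p = 0.0066) and the 374-base model of HIST1H4J (-1.25, SE 0.21, adjusted p = 0.0012), each the only one that carried its gene. The transcript calls moved with the samples used: without any 1 of the 0 h libraries or of 24 h replicates 2 and 3, 1 model was called higher, as it was without 2 h replicate 1. Without 0 h replicate 3, any 1 of the 1 h libraries, 2 h replicate 2 or 24 h replicate 3, 1 model was called lower.

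**Figure D4:**
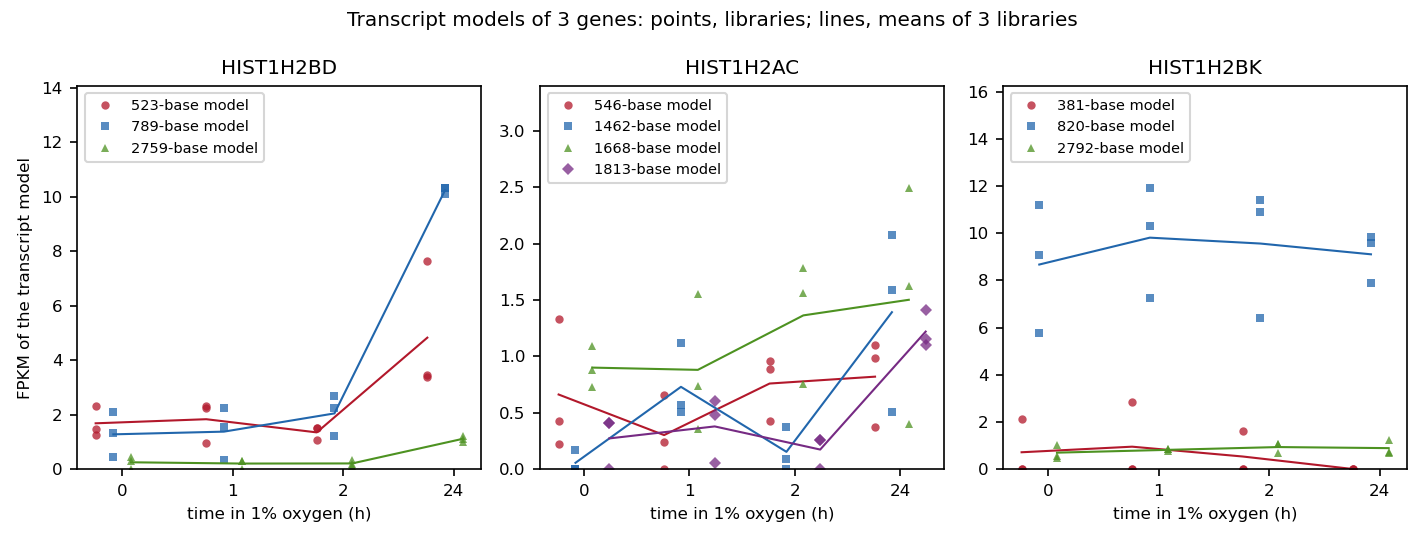
FPKM of the most abundant transcript models of HIST1H2BD, HIST1H2AC and HIST1H2BK (vertical axis) by time in 1% oxygen (horizontal axis), with 1 point per library and lines through the means of 3. The 789-base model of HIST1H2BD stands at 10.1 to 10.3 FPKM at 24 h against 0.435 to 2.08 at 0 h, while the 820-base model of HIST1H2BK overlaps between the times.

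The genes that make and process histone mRNA were compared as lists, by counts without a set test. Their counts at 24 h are to be read against 8.76% of all genes called higher and 9.51% called lower, and 25% higher and 30.3% lower at an adjusted p under 0.05. Of 16 genes of histone gene transcription and 3' end formation, 0 were called higher by limma (1 had an adjusted p under 0.05 on that side) and 4 lower, with a median log2 fold change of -0.62. SLBP, the stem-loop binding protein, was at 125, 133 and 119 FPKM at 0 h and 53.2, 52.0 and 48.6 at 24 h, far apart (-1.28, SE 0.08, adjusted p = 3.8e-07). LSM10, a protein of the U7 particle, was at 38.1 ± 3.3 FPKM at 0 h and 14.0 ± 4.07 at 24 h (-1.45, adjusted p = 5.7e-05). LSM11, its partner in that particle, was higher by less than the fold required, at 1.73 ± 0.437 FPKM at 0 h and 3.4 ± 0.496 at 24 h (0.82, SE 0.19, adjusted p = 0.0033; 0.08 under TPM). CSTF2, a subunit of the cleavage stimulation factor that takes part in both kinds of 3' end formation, went from 32.0 ± 2.84 to 9.92 ± 0.815 FPKM (-1.64, adjusted p = 1.4e-06), and NCBP1, of the nuclear cap-binding complex, from 27.3 ± 2.39 to 7.77 ± 1.29 (-1.76, adjusted p = 1.1e-06). NPAT, the activator of histone gene transcription, and CASP8AP2 (FLASH), which it works with at the histone locus body, were lower by less than the fold required, at -0.66 (SE 0.12, adjusted p = 0.00058) and -0.58 (SE 0.15, adjusted p = 0.005), and were called lower under TPM (-1.27 and -1.22). Under TPM 10 of the 16 were called lower, against 23.3% of all genes.

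Of 8 genes of histone mRNA decay, LSM1 of the decapping complex was called lower (-1.03, adjusted p = 6.4e-05; -0.99 and not called under median-of-ratios scaling) and 0 were called higher by limma, with 3 at an adjusted p under 0.05 on that side. A single call lower in 8 genes is near the 9.51% of all genes. Of 15 genes of general polyadenylation, 0 were called by limma, with 1 higher and 9 lower at an adjusted p under 0.05 and a median of -0.31. Under TPM 4 of these 15 were called lower, against 23.3% of all genes. Of 16 histone chaperones, 5 were called lower: CHAF1A and CHAF1B, of the CAF-1 complex that loads H3 and H4 on newly copied DNA (-1.66 and -1.49), ASF1A and ASF1B (-1.36 and -1.10), and the importin IPO4 (-1.49). Of 22 S-phase genes 16 were called lower and all 22 were lower at an adjusted p under 0.05, with a median of -1.28, against 9.51% and 30.3% of all genes. Largest were the cyclin gene CCNE2 (-2.49), GINS2 (-1.94) and MCM4 (-1.77) of the replicative helicase, and MCM5 (-1.63). No gene of any of these lists was called at 1 h or 2 h.

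Histone genes outside the clusters, termed replication-independent here, mostly give mRNAs with an ordinary poly(A) tail and were compared as a further list. H2AFX is an exception in that it is known to give both a stem-loop-ended and a longer polyadenylated mRNA. All 12 of this list were tested, with 2 called higher and 2 lower, against 8.76% and 9.51% of all genes, and a median of -0.01. H1F0, the linker histone H1.0 of resting cells, was at 58.4, 86.9 and 102 FPKM at 0 h and 244, 282 and 244 at 24 h, well separated (1.67, SE 0.34, adjusted p = 0.0012). H2AFJ went from 4.08, 4.43 and 6.98 FPKM to 11.8, 12.9 and 8.31 (1.03, SE 0.26, adjusted p = 0.0045). Under TPM neither was called, at 0.79 and 0.22. H2AFX, the variant phosphorylated at DNA breaks, went from 112 ± 7.52 to 48.7 ± 7.99 FPKM (-1.20, adjusted p = 9.7e-06), and H2AFY, macroH2A1, from 149 ± 8.8 to 66.7 ± 6.97 (-1.16, adjusted p = 1.1e-06).

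The other 8 variants were not called. H3F3B, which encodes H3.3, was at 1310 ± 71.4 FPKM at 0 h and 741 ± 67.5 at 24 h (-0.83, adjusted p = 3.3e-05), while H3F3A, which encodes the same protein, was at 98.1 ± 17.8 and 112 ± 19.0 (0.20, adjusted p = 0.38). H2AFZ (-0.87, adjusted p = 7.2e-05) and H3F3C (-0.96, adjusted p = 0.001) were lower and H1FX (0.70, adjusted p = 0.0099) higher by less than the fold required. H2AFV (-0.01), H2AFY2 (-0.02) and the centromeric CENPA (0.23) had adjusted p-values of 0.96, 0.89 and 0.29. Under TPM, H2AFZ (-1.74), H3F3B (-1.70) and H3F3C (-1.75) were called lower, H3F3C also under TPM over transcripts of at least 300 bases (-1.06). H3F3A, H1FX and CENPA turned sign under TPM, and H2AFV and H2AFY2 under median-of-ratios scaling.

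**Figure D5:**
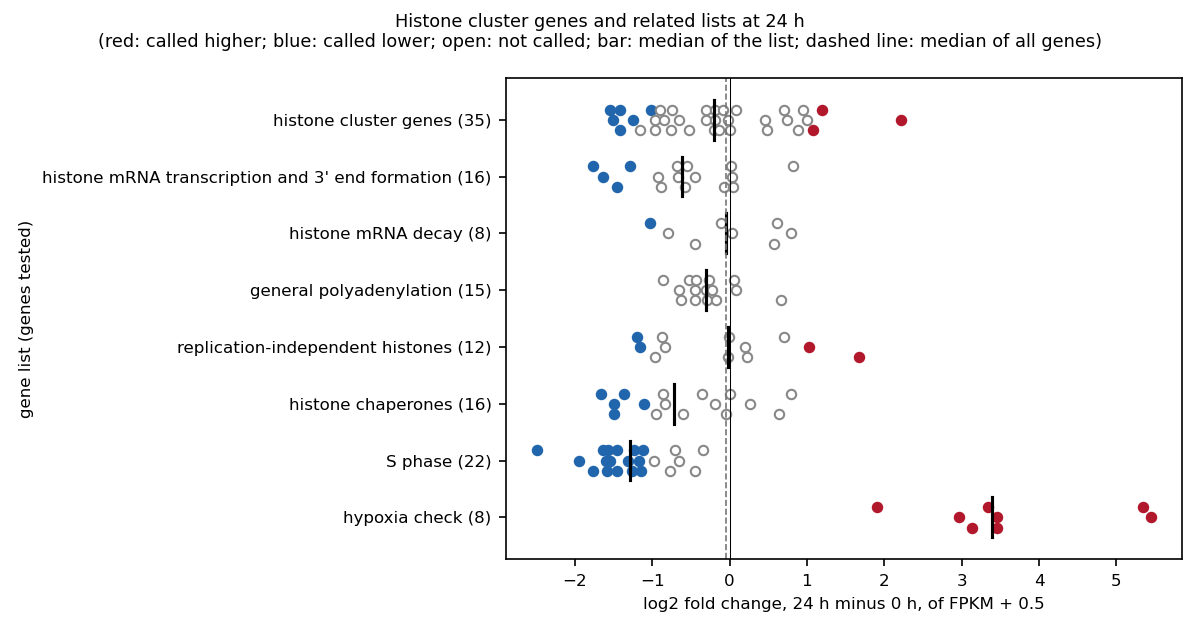
Log2 fold change of FPKM + 0.5 at 24 h against 0 h (horizontal axis) for each tested gene of the histone clusters and of 7 related lists (rows), with red for called higher, blue for called lower, open points for genes not called, and a bar at each list's median. The histone cluster genes spread from -1.54 to 2.22 around a median of -0.20, whereas all 22 S-phase genes lie below 0.

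To see what else the members share, promoter sequences in RefSeq (GRCh38.p14, 300 bases around the gene start, most of them upstream) were found for 61 members and searched on both strands. CCAAT, the box bound by NF-Y, was present in 83.6% of members and 35.6% of 27244 other promoters. It was in all matched H1, H2A, H2B and H3 promoters but in 3 of 13 of H4. The octamer ATTTGCAT, bound by OCT1, was found in 11 of 16 H2A and 9 of 13 H2B promoters, in 1 of 13 of H3, in 0 of H1 and H4, and in 1.73% of others. TATAAA was in 67.2% of members and 11.8% of others. The hypoxia-response core letters ACGTG and GCGTG were in 14.8% and 16.4% of members, against 21.6% and 36.4% of others. A match is a description of the letters and not of binding.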

How the data were processed

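HCT116 RNA was selected for poly(A) and sequenced by the authors as strand-specific paired reads. The authors aligned the reads to hg19 with MapSplice, assembled transcripts per sample with Cufflinks, merged them and compared them with Ensembl. The deposited values are FPKM per merged transcript and library, used as deposited without rescaling. No counts were used, so the reads behind each value are not known. How reads shared between near-identical histone genes were divided is not given in the sources used here.

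FPKM was summed per gene name over class codes = and j. Gene names above 0.5 FPKM in at least 3 libraries were tested with limma 3.58.1 in R 4.3.3 (lmFit, eBayes with trend) on log2(FPKM + 0.5), with Benjamini-Hochberg adjustment over 16680 names, two-sided. Deviations from the group means of same-numbered libraries correlated by 0.129 to 0.362 between 0 h and 2 h. The range was 0.0954 to 0.34 between 0 h and 1 h and -0.000785 to 0.242 between 0 h and 24 h. Among comparisons with 0 h, all 3 exceeded 0.1 for 2 h alone. The main fit used no block at any time. The replicate number was a block only in alternative fits, over all 12 libraries or over those of 0, 1 and 2 h. The scripts were tested on simulated data. Tables and figures were made in Python 3.11.15. Named members were those called, and the 4 most abundant of each class; others were named after their values were seen. Named list genes were all called ones up to 6 per list, otherwise the 4 with the largest change, and SLBP, NPAT, CASP8AP2 and all replication-independent histones. The members and lists were chosen with earlier results of these data known. Alternatives covered the pseudocount, filters, scaling, class codes, libraries fitted, block, trend and threshold.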

Additional observations from a re-analysis of the deposited data

How the results depend on the processing

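Of the 9 calls at 24 h, HIST1H2BD, HIST1H4J and HIST2H2AC kept direction and call under all 27 alternatives, and at 1 h and 2 h 0 members were called under any (limma without the block; 2 with an unadjusted p under 0.05 at each). For histone genes at 24 h (3 higher, 6 lower), a pseudocount of 1 or no filter on low values gave 3 lower, TPM 1 higher and 6 lower (1 of them, HIST1H4A, not among the 9), and an adjusted p under 0.05 without a fold 7 higher and 11 lower. Leaving out each library gave 1 to 5 higher and 3 to 6 lower. For histone transcripts (2 and 2), no filter gave 1 higher and 1 lower, TPM 1 higher, and the 6 libraries of the contrast 0 lower. An adjusted p under 0.05 alone gave 8 and 7 histone transcripts. The share of all transcripts at that threshold is not known here, so these counts cannot be read against a background. For the transcripts, leaving out each library gave 1 to 3 higher and 1 to 3 lower. For the related lists (10 higher, 28 lower), TPM gave 7 higher and 50 lower, and an adjusted p under 0.05 alone 18 and 59. Of all genes, 1.29% were called higher and 23.3% lower under TPM, and 25% and 30.3% passed the adjusted p alone. Leaving out each library gave 9 to 10 and 26 to 30 for the lists. With the replicate block, 3 histone genes were again higher and 6 lower, all 9 of them shared, and 4 histone transcripts were higher. With the block over the 9 libraries of 0, 1 and 2 h, chosen after seeing the data, 0 members were called at 1 h or 2 h. Among these times same-numbered libraries correlated by 0.0954 to 0.428 (9 pairs, mean 0.262), and between 24 h and the others by -0.0833 to 0.242 (mean 0.0449). The mean of -0.131 for the 18 early pairs of different numbers is no separate contrast, because deviations within a group cancel.

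Values that were not called changed sign for HIST1H2BK (0.015 under median-of-ratios scaling, -0.15 to 0.11 without single libraries), HIST3H2A (-0.27 under TPM), HIST2H4A (0.085 with class code = alone, 0.54 with only transcripts past the filter, -0.38 to 0.22 without single libraries) and HIST1H4C (-0.30 to 0.084 without single libraries). Transcripts under 300 bases held 57.0% to 87.6% of a library's FPKM, and TPM divides by that sum. The cause of the other shifts was not tested. The reads behind each value are not known, and members near 0.5 FPKM are imprecise.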

Other observations

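Models filed under member names with other class codes were left out of all sums. One, of 2533 bases and overlapping HIST1H3E, was at 0.0609, 0.0456 and 0.235 FPKM at 0 h and 0.403, 0.545 and 0.653 at 24 h. A model antisense to HIST2H4B, of 1542 bases, had mean values of 0.836 FPKM in the 0 h libraries and 1.09 in the 24 h libraries, with 1.59 and 1.64 at the times between.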
